A study of Mus musculus with 12 samples.

Results

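Axon guidance ligands and receptors were examined in stromal cells of the mouse colon, as the genes whose symbols name a semaphorin of classes 3 to 7, a plexin, a neuropilin, a slit, a robo, a netrin, an Unc5 receptor, an ephrin or an Eph receptor. The rule takes genes by symbol alone and uses no measured value, but the genes were chosen with earlier results of these data known. It took in 60 of the 19049 genes in the count table, 32 of them ligands and 28 receptors. These were 19 semaphorins, 11 plexins and neuropilins, 3 slits, 2 robos, 2 netrins, 4 Unc5 receptors, 8 ephrins and 11 Eph receptors. The annotation holds 67 such symbols, and Epha6, Epha8, Epha10, Ntn3, Ntn5, Robo3 and Sema4f were not analysed here. All 60 genes passed the filter on low counts and were tested.

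These families were first known as cues that attract or repel growing nerve fibres, and they also set the position, contact and migration of many cells outside the nervous system. Semaphorins signal through plexins, with neuropilins as co-receptors for the secreted class 3 members. Slits bind robo receptors, netrins bind Unc5 receptors and Dcc, and ephrins are membrane-bound ligands of Eph receptor tyrosine kinases, so that signalling can pass into both touching cells. In the gut they are known from the wiring of the enteric nervous system, from vessel growth and from the sorting of epithelial cells along the crypt.

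RNA-seq libraries came from 3 groups of 4 C57BL/6J mice: normal colon of adults aged 8 weeks, developing colon at postnatal day 14 (P14, 2 weeks), and colonic tumours of mice aged 12, 13, 14 and 14 weeks. The tumours followed azoxymethane (AOM), which damages DNA, and dextran sodium sulfate (DSS), an irritant of the gut lining, so age and treatment cannot be told apart in the tumour group. Live cells lacking EPCAM, CD31, CD45 and TER119 were sorted, which leaves the stroma once epithelial, endothelial and blood lineages are removed. Each comparison below asks how the stroma of the young colon or of the tumour differs from that of the normal adult, or from each other. The design text calls the young group prenatal where it lists the comparisons, whereas the samples are labelled as 2 weeks old and are treated here as P14.

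Totals were 26392364 to 29911817 counts in normal adult, 29499836 to 38799033 in P14 and 15449444 to 28471598 in tumour libraries, with tumour replicate 4 lowest. The labelled cell type was met by its defining markers: Pdgfra, the receptor of fibroblasts, measured 833 to 1162 CPM (counts scaled to library depth with TMM factors) in normal adult, 826 to 968 in P14 and 504 to 1247 in tumour libraries. Epcam, the gene of the epithelial sort marker, was nonetheless present at 704 to 1589, 39 to 291 and 212 to 767 CPM in the same order, and Pecam1, which encodes CD31, reached 58.3 CPM in P14 replicate 3. Ptprc, which encodes CD45, was highest in tumour replicate 2, at 33.5 CPM. Markers of squamous epithelium summed to 5793 to 16242 CPM in tumours against 71.2 to 544 in normal adult and 96 to 212 in P14 libraries. Each group should hold 2 male and 2 female mice by the stated design. High Xist and no more than 1 Y-linked count in any of the 4 tumour libraries go against that statement, and in the other groups 2 of 4 libraries had low Xist.

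Of the 60 genes, 33 differed between P14 and normal adult stroma (24 higher and 9 lower at P14), 13 between tumour and normal adult (9 higher and 4 lower), and 35 between tumour and P14 (15 higher and 20 lower in tumours). In such bulk samples fewer cells of a type and less RNA per cell cannot be told apart. Calls were made at a Benjamini-Hochberg adjusted p under 0.05 over 18727 genes with edgeR's quasi-likelihood test. Called shares among all genes tested were 30.9% for P14 against normal adult (14.9% higher and 16% lower), 18.9% for tumour against normal adult (10.6% higher and 8.29% lower) and 37% for tumour against P14 (19.7% higher and 17.3% lower). The shares among the axon guidance genes were 55.0%, 21.7% and 58.3% in that order, so the share for tumour against normal adult lay near the background. Their median log2 fold changes were 0.39, 0.20 and -0.23, against 0.00, 0.00 and 0.05 for all genes tested. At P14 the receptors were mostly on the high side, with 13 of 28 higher and 1 lower, while the ligands split into 11 higher and 8 lower of 32. With a term for high or low Xist the counts were 31, 9 and 32, and without tumour replicate 4 they were 33, 13 and 35. Without tumour replicate 2, which had the most leukocyte RNA, tumour against normal adult gave 18 calls.

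**Figure D1:**
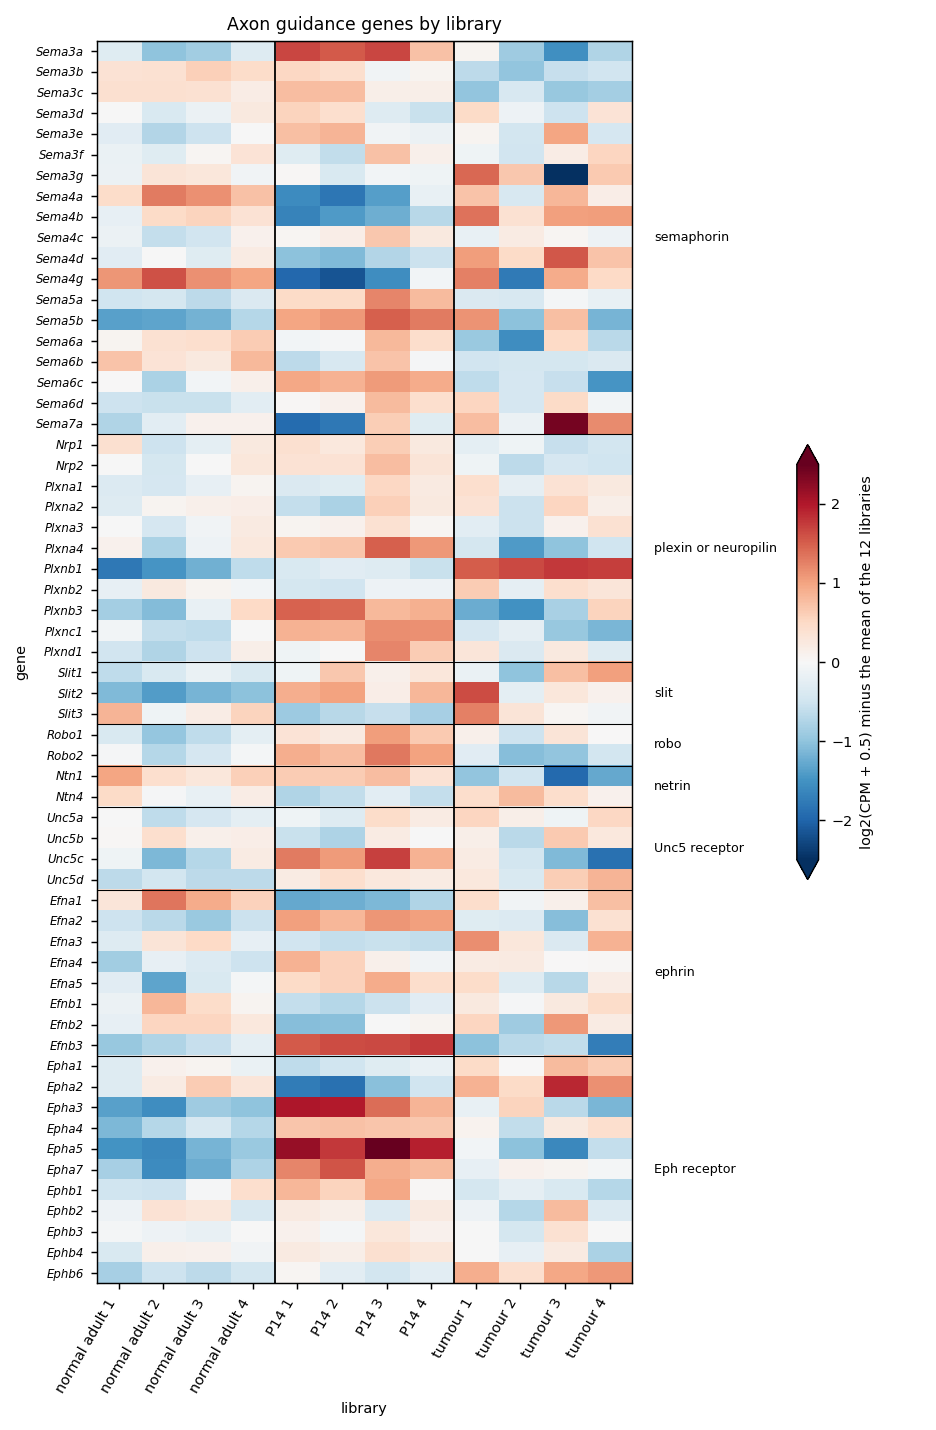
Levels of the 60 axon guidance genes (rows, grouped by role) in the 12 libraries (columns), as log2(CPM + 0.5) minus the gene's mean over the libraries; red is above and blue below that mean. Epha3, Epha5, Epha7, Efnb3 and Sema3a are red across the 4 P14 libraries, and Plxnb1 and Ephb6 across the 4 tumour libraries.

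**Figure D2:**
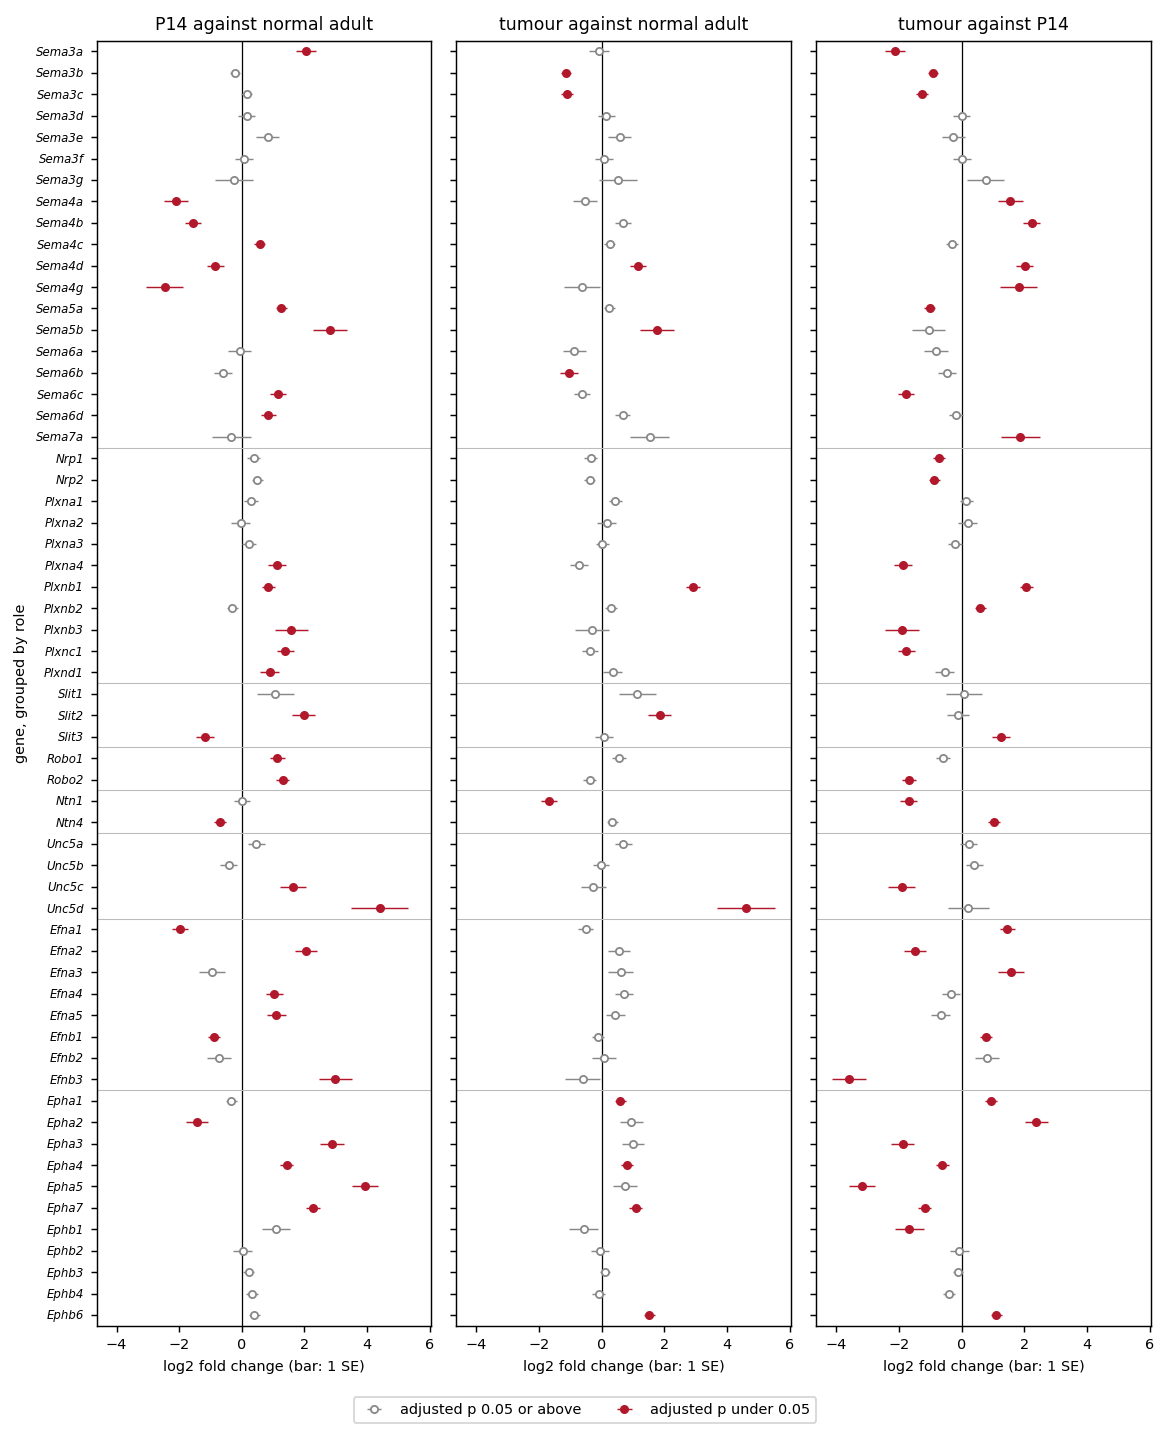
Log2 fold changes with 1 SE for the 60 genes (rows, grouped by role) in each of the 3 comparisons (panels); red filled points passed an adjusted p under 0.05. Called points number 33, 13 and 35 from left to right, and the value of Unc5d in the first 2 panels rests on 2 counts in normal adult libraries.

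Between genes, levels were compared as CPM per kilobase of exon (mean ± SD, n = 4 libraries per group, here and below). The length was that of all annotated exons of a gene, merged. In normal adult stroma Sema3c was the most abundant, at 76.6 ± 5.17 CPM per kilobase, ahead of Ntn1 at 36.7 ± 8.1 and Plxnb2 at 32.3 ± 4.4, and the last 2 lay within each other's SD. The same 3 genes led at P14, where Sema3c stood at 85.1 ± 21.3, Ntn1 at 37 ± 4.22 and Plxnb2 at 26.2 ± 3.44 CPM per kilobase, with Nrp2 (23.1 ± 3.59) within the spread of Plxnb2. In tumours Plxnb2 (39.5 ± 9.26), Epha2 (37.5 ± 16.6) and Sema3c (35.2 ± 7.01 CPM per kilobase) led and could not be ordered beyond their spread. Unc5d had the lowest mean of the 60 in every group, in tumours within the spread of Ephb1. Slit3, Robo2 and Unc5b had the highest means of their families in each group, Robo2 within the spread of Robo1 in tumours. These ranks depend on the merged lengths, 6.07 kb for Slit3 against 25.4 kb for Slit2, and 6.26 kb for Unc5b against 19.1 kb for Unc5c. Which transcripts of these genes were expressed was not examined. Among ephrins Efna1 led in normal adult (24 ± 7.71, against 18.2 ± 5.56 for Efnb1) within the spread, was level with Efnb1 in tumours (16.9 ± 4.36 and 16.8 ± 2.3) and was lower at P14 (6.14 ± 1.15 against 9.78 ± 1.25). All values below are levels in CPM, which serve comparisons of 1 gene between groups and not between genes.

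Of the 7 secreted class 3 semaphorins, only Sema3a differed between P14 and normal adult stroma in this test, and Sema3b and Sema3c were the members lower in tumours. Sema3a, which repels axons and endothelial cells through Nrp1 and plexin A receptors (ENSMUSG00000028883, GRCm38 chromosome 5, 13125414 to 13602565, plus strand), measured 57, 35.1, 38.5 and 56.1 CPM in the normal adult libraries, 225, 205, 226 and 117 at P14 and 73.4, 37.7, 24.1 and 41.7 in tumours (replicates 1 to 4 in order, here and for each gene below). All P14 libraries lay above the others, with replicate 4 lowest among them. The log2 fold change was 2.05 ± 0.32, adjusted p = 0.001 at P14 and -0.08 ± 0.31, adjusted p = 0.893 in tumours, both against normal adult (± SE, the form of every difference below, all on the log2 scale), and -2.13 ± 0.33, adjusted p = 0.00043 for tumour against P14. Sema3c, a guide of neural crest and endothelial migration, measured 566, 567, 563 and 492 CPM in the normal adult libraries, 739.8, 738, 477 and 475 at P14 and 217, 325, 225 and 238 in tumours. Every tumour library was below all others, and at P14 replicates 1 and 2 stood well above replicates 3 and 4. Sema3c differed by -1.12 ± 0.19, adjusted p = 0.00193 in tumours and by 0.15 ± 0.19, adjusted p = 0.592 at P14, against normal adult on the log2 scale. Sema3b, known in people as a candidate suppressor of lung tumours, measured 63.1, 63.5, 74 and 67.9 CPM in the normal adult libraries, 69.8, 65.4, 45.9 and 51.3 at P14 and 31.1, 24.3, 32.6 and 35 in tumours, with tumours again lowest and not overlapping the rest. Its log2 fold change in tumours was -1.13 ± 0.16, adjusted p = 0.000662 against normal adult and -0.92 ± 0.16, adjusted p = 0.000962 against P14. Sema3d, Sema3e, Sema3f and Sema3g passed in none of the 3 comparisons.

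Among the 12 membrane-bound semaphorins of classes 4 to 7, 5 were higher and 4 lower at P14, and the class 4 members were on the low side apart from Sema4c. Sema4g, a transmembrane semaphorin, measured 43.3, 60.5, 44.2 and 39.6 CPM in the normal adult libraries, 4.73, 4.09, 6.39 and 18.8 at P14 and 48.6, 5.51, 38.3 and 28.4 in tumours. P14 replicate 4 was the highest of its group and tumour replicate 2 stood with the P14 libraries. The P14 log2 fold change was -2.46 ± 0.60, adjusted p = 0.00837, and -3.21 without P14 replicate 4. Against P14, tumours differed by 1.82 ± 0.59, adjusted p = 0.028, which was no longer called without P14 replicate 1, 2 or 3 or tumour replicate 1 or 3 (adjusted p 0.0571 to 0.0793), nor with the Xist term (adjusted p = 0.0743), and was 2.57 without P14 replicate 4. Sema4a, which costimulates T cells, measured 21.6, 38.9, 35.3 and 26.3 CPM in the normal adult libraries, 4.92, 4.12, 5.67 and 13.7 at P14 and 26.1, 11.7, 28.4 and 17.5 in tumours, with normal adult libraries above all P14 libraries. It fell by 2.10 ± 0.40 on the log2 scale at P14 (adjusted p = 0.0023) and was higher in tumours than at P14 by 1.56 ± 0.39, adjusted p = 0.00832.

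Sema4b, another transmembrane member, measured 32.5, 53.1, 55.5 and 48.5 CPM in the normal adult libraries, 11.6, 13.8, 15.9 and 23.3 at P14 and 97.9, 49.4, 77.5 and 79 in tumours. P14 libraries were lowest, without overlap, and tumour replicate 2 lay in the normal adult range. At P14 the change from normal adult was -1.55 ± 0.26, adjusted p = 0.00128, and tumours exceeded P14 by 2.23 ± 0.26, adjusted p = 8.47e-05. Tumour against normal adult gave 0.68 ± 0.25, adjusted p = 0.0811, with an adjusted p of 0.0284 without tumour replicate 2. Sema4d, the ligand of plexin B1 also known as CD100 on lymphocytes, measured 4.1, 5.13, 4.07 and 6.00 CPM in the normal adult libraries, 2.28, 2.14, 2.87 and 3.4 at P14 and 11.1, 7.34, 15.9 and 8.72 in tumours. It was the class 4 semaphorin called higher in tumours against normal adult (1.16 ± 0.27, adjusted p = 0.0107), with no overlap between the groups. Its lower level at P14 (-0.85 ± 0.27, adjusted p = 0.0313) was not called without normal adult replicate 2 or 4 or P14 replicate 1, 2 or 3 (adjusted p 0.0543 to 0.0901). Sema4c was 0.57 ± 0.19, adjusted p = 0.035 higher at P14, a call lost without any 1 of normal adult replicates 1 to 3 or P14 replicates 2 to 4 (adjusted p 0.0514 to 0.11).

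Of the class 5 and 6 semaphorins, Sema5a, Sema5b, Sema6c and Sema6d rose at P14. Sema5a, whose thrombospondin repeats can both attract and repel axons, rose from 81.7 ± 6.95 to 196 ± 50.4 CPM (1.27 ± 0.17, adjusted p = 0.000441) and stood at 96.7 ± 11.2 CPM in tumours. Sema5b, its close relative, measured 0.801, 0.848, 0.973 and 1.53 CPM in the normal adult libraries, 6.1, 6.56, 8.92 and 7.76 at P14 and 6.75, 1.15, 5.16 and 1.00 in tumours. All P14 libraries were above the normal adult ones (2.81 ± 0.55, adjusted p = 0.00283), while in tumours replicates 1 and 3 were high and replicates 2 and 4 near the normal level. The tumour value of 1.76 ± 0.54, adjusted p = 0.0396 was lost with 10 of the left-out libraries (adjusted p 0.0501 to 0.123, the largest without tumour replicate 1) and with the Xist term (adjusted p = 0.107). Sema6c, a transmembrane ligand of plexin A receptors, measured 7.85, 4.28, 7.46 and 8.52 CPM in the normal adult libraries, 15.7, 14.6, 16.9 and 15.2 at P14 and 4.86, 5.69, 5.07 and 2.5 in tumours, so that P14 libraries were above both other groups (1.15 ± 0.26, adjusted p = 0.00592 against normal adult and -1.77 ± 0.27, adjusted p = 0.000388 for tumour against P14). Sema6d was also higher at P14 (0.85 ± 0.23, adjusted p = 0.0134), and Sema6a passed in no comparison. Sema6b measured 11.7, 8.81, 8.26 and 12.5 CPM in the normal adult libraries, 4.18, 5.08, 11.5 and 6.7 at P14 and 4.77, 4.94, 4.98 and 5.29 in tumours, and its lower level in tumours (-1.05 ± 0.29, adjusted p = 0.0247) was not called without normal adult replicate 1 or 4 or tumour replicate 1 (adjusted p 0.0527 to 0.0686) or with the Xist term (adjusted p = 0.0882). At P14 it gave -0.59 ± 0.28, adjusted p = 0.139, and an adjusted p of 0.0126 without P14 replicate 3. Sema7a, which is tethered to the membrane by a lipid anchor and binds plexin C1, measured 7.37, 10.5, 13.7 and 13.8 CPM in the normal adult libraries, 2.97, 3.31, 19.6 and 10.2 at P14 and 22, 11.4, 68.5 and 29.5 in tumours. Its spread was wide in P14 and tumour libraries alike, with tumour replicate 3 highest. Tumour against P14 gave 1.87 ± 0.62, adjusted p = 0.0332, and without P14 replicate 1, 2 or 4 or tumour replicate 3 the adjusted p was 0.0548 to 0.122. With the Xist term it was 0.0899, and without P14 replicate 3 the difference was 2.57.

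Of the 9 plexins, 5 were higher and none lower at P14, and 1 of 9, Plxnb1, was higher in tumours against normal adult stroma. Plxnb1, the receptor of Sema4d (ENSMUSG00000053646, GRCm38 chromosome 9, 109095389 to 109119917, plus strand), measured 10.5, 13.1, 15.9 and 23.9 CPM in the normal adult libraries, 28.5, 30.6, 29.8 and 25.2 at P14 and 107, 119, 128 and 125 in tumours. The 3 groups did not overlap: the lowest tumour library had 107 CPM, and no other library exceeded 30.6 CPM. It was 2.92 ± 0.22, adjusted p = 1.33e-05 higher in tumours than in normal adult and 2.07 ± 0.21, adjusted p = 3.72e-05 higher than at P14, with a smaller difference of 0.85 ± 0.21, adjusted p = 0.00869 between P14 and normal adult. Plxnb1 shares 2.68% of its exon bases with a gene on the opposite strand, and whether counting used strand is not given in the sources used here. Plxnb2, which binds class 4 semaphorins, was the most abundant plexin per length and measured 213, 293, 258 and 234 CPM in the normal adult libraries, 182, 176, 226 and 224 at P14 and 379, 209, 329 and 303 in tumours. Its groups overlapped, and the tumour excess over P14 (0.59 ± 0.18, adjusted p = 0.0227) was not called without P14 replicate 1 or 2 or tumour replicate 1 (adjusted p 0.0666 to 0.0715) or with the Xist term (adjusted p = 0.0601).

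Plxnc1, the receptor of Sema7a, measured 5.83, 3.87, 3.79 and 6.07 CPM in the normal adult libraries, 11.6, 11.4, 14.3 and 14.2 at P14 and 4.45, 5.15, 2.92 and 2.5 in tumours. All P14 libraries were above the rest, with 1.39 ± 0.26, adjusted p = 0.00219 against normal adult and -1.76 ± 0.27, adjusted p = 0.000382 for tumour against P14. Plxna4, which pairs with neuropilins to bind class 3 semaphorins, measured 17.9, 9.48, 15.3 and 20.1 CPM in the normal adult libraries, 26.5, 27.2, 48.2 and 36 at P14 and 12.2, 5.94, 8.08 and 11.7 in tumours. It was higher at P14 than in normal adult stroma (1.13 ± 0.29, adjusted p = 0.0109) and lower in tumours than at P14 (-1.87 ± 0.30, adjusted p = 0.000551). Plxnb3, a receptor of Sema5a, measured 2.11, 1.73, 3.64 and 6.2 CPM in the normal adult libraries, 12.7, 12.3, 7.78 and 8.26 at P14 and 1.48, 1.15, 2.2 and 6.43 in tumours. P14 libraries were above all others, and tumour replicate 4 reached the highest normal adult value. The P14 call (1.58 ± 0.53, adjusted p = 0.0378) was lost without normal adult replicate 1, 2 or 3 or P14 replicate 1 or 2 (adjusted p 0.0803 to 0.104). Tumour against P14 was -1.90 ± 0.54, adjusted p = 0.0158, and -2.68 without tumour replicate 4. Plxnd1, the plexin of vessel endothelium, measured 45.7, 37.8, 44.4 and 70.9 CPM in normal adult and 59.5, 62.8, 148 and 99.4 at P14. Its highest library, P14 replicate 3, was also the one with the highest sum of endothelial markers (499 CPM against 201, 179.7 and 254 in the other P14 libraries), and the call (0.90 ± 0.30, adjusted p = 0.0389) was lost without that library (0.57, adjusted p = 0.134) and without normal adult replicate 1, 2 or 3 or P14 replicate 4 (adjusted p 0.072 to 0.109). Plxna1, Plxna2 and Plxna3 passed in no comparison.

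The neuropilins, co-receptors of class 3 semaphorins and of VEGF, were both lower in tumour than in P14 stroma. Against normal adult neither was called by edgeR, while Nrp2 had an unadjusted p under 0.05 in both comparisons and was called at P14 by DESeq2 and by limma voom. Nrp1 averaged 152 ± 43.3 CPM in normal adult, 197 ± 25.1 at P14 and 119 ± 17.5 in tumours, with -0.73 ± 0.20, adjusted p = 0.012 for tumour against P14. For Nrp2 the levels were 195 ± 38.4, 274 ± 42.6 and 149 ± 24.8 CPM, and the change from P14 to tumour was -0.88 ± 0.18, adjusted p = 0.00242. Nrp2 at P14 did not overlap normal adult but missed the threshold (0.49 ± 0.18, adjusted p = 0.0504).

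At P14 Slit2 was higher and Slit3 lower. Slit2, a repellent for axons and migrating cells, measured 11, 8.85, 10.5 and 11.6 CPM in the normal adult libraries, 45.9, 48.8, 27.1 and 43.1 at P14 and 75.4, 20.2, 29.4 and 26.2 in tumours. Normal adult libraries were below all others, and tumour replicate 1 was far above the remaining tumours. Slit2 was higher than in normal adult both at P14 (1.97 ± 0.36, adjusted p = 0.00196) and in tumours (1.85 ± 0.36, adjusted p = 0.00413, and 1.27 with an adjusted p of 0.00278 without tumour replicate 1). Tumour against P14 gave -0.13 ± 0.35, adjusted p = 0.802 with all libraries and -0.71, adjusted p = 0.026, without tumour replicate 1. Slit3, the most abundant slit per length, measured 151, 77.5, 94.8 and 123 CPM in the normal adult libraries, 44, 51.7, 56 and 46.6 at P14 and 201, 104, 87 and 78.3 in tumours. Its P14 libraries were the lowest, with no overlap, at -1.17 ± 0.29, adjusted p = 0.00876 against normal adult, and tumours exceeded P14 by 1.25 ± 0.29, adjusted p = 0.00515. Slit1, which stayed at or under 2.29 CPM in every library, passed in no comparison.

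Both robo receptors, through which slits act, were higher at P14. Robo2 measured 132, 81.4, 101 and 129 CPM in the normal adult libraries, 253, 232, 339 and 272 at P14 and 111, 63.9, 67.9 and 97.6 in tumours. All P14 libraries had 232 CPM or more, and the other 8 lay between 63.9 and 132 CPM. The log2 fold change was 1.30 ± 0.22, adjusted p = 0.00126 at P14 and -0.38 ± 0.21, adjusted p = 0.238 in tumours, against normal adult, and -1.69 ± 0.22, adjusted p = 0.000152 for tumour against P14. Robo1 rose from 44.8 ± 9.49 to 98.7 ± 25.9 CPM at P14 (1.14 ± 0.23, adjusted p = 0.00307), and at 65.7 ± 15.2 CPM in tumours it passed neither against normal adult (0.55 ± 0.23, adjusted p = 0.112) nor against P14 (-0.59 ± 0.23, adjusted p = 0.0577, though called by DESeq2).

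Ntn1 was lower in tumours than in either other group. This gene, which encodes a secreted laminin-like cue that attracts axons through Dcc and repels them through Unc5 receptors (ENSMUSG00000020902, GRCm38 chromosome 11, 68209364 to 68400823, minus strand), measured 301, 203, 185 and 231 CPM in the normal adult libraries, 238, 236, 259 and 196 at P14 and 76.2, 109.6, 39 and 62.3 in tumours. No tumour library reached the lowest of the other 8. Its change was -1.68 ± 0.27, adjusted p = 0.00126 against normal adult and -1.69 ± 0.27, adjusted p = 0.000516 against P14, while P14 against normal adult gave 0.01 ± 0.26, adjusted p = 0.979. Within the tumours Ntn1 was ordered as the summed fibroblast markers, which were 24507, 34371, 12199 and 22303 CPM in replicates 1 to 4, against 31718 to 40677 in normal adult and 75932 to 99814 in P14 libraries. The largest part of that sum was Col3a1, at 12217, 17309, 6008 and 11054 CPM in tumour replicates 1 to 4. Col3a1, Dcn and Lum had the order of Ntn1 in the tumours, and the other listed fibroblast markers did not. Col1a1 was lowest in tumour replicate 2 (2015, 889, 1044 and 2058 CPM), where Ntn1 was highest. The fibroblast markers are 10 genes, of which 1 was higher and 2 lower in tumours than in normal adult. In tumours the same order held for the sums of adventitial fibroblasts (582, 1008, 259 and 349 CPM in replicates 1 to 4). It also held for leukocytes (13.9, 97.3, 9.47 and 11.1 CPM), neutrophils, and B and plasma cells. The order of Ntn1 therefore does not single out fibroblasts, and the part of these cells in the Ntn1 result was not tested. Ntn4, a netrin of basement membranes, fell from 37.5 ± 7.73 to 23.3 ± 3.58 CPM at P14 (-0.69 ± 0.19, adjusted p = 0.0141) and was 47.4 ± 9.18 CPM in tumours, above P14 by 1.03 ± 0.19, adjusted p = 0.00123.

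Of the 4 Unc5 receptors, which carry the repellent response to netrin, 2 were higher at P14. Unc5c measured 17.9, 8.55, 11.5 and 22.3 CPM in the normal adult libraries, 47.9, 41.1, 64.4 and 35.6 at P14 and 22.2, 13.9, 8.75 and 4.93 in tumours. P14 libraries were above all others, and tumour and normal adult values overlapped, with 1.65 ± 0.41, adjusted p = 0.00987 for P14 against normal adult and -1.92 ± 0.42, adjusted p = 0.00374 for tumour against P14. Unc5d had 2 counts in all over the normal adult libraries, both in replicate 2, against 13 to 18 counts in each P14 library and 3 to 16 in each tumour library. It passed in both comparisons with normal adult (adjusted p = 0.00384 and 0.00502), and the ratios of scaled counts were 26.4 (95% exact interval 7.0 to 223) and 28.0 (7.29 to 239), which cover counting error only. Unc5b, an Unc5 receptor of endothelium and the most abundant of the 4 per length, measured 55.2, 71.7, 58.9 and 60.1 CPM in the normal adult libraries, 36.5, 31.2, 62.3 and 53.7 at P14 and 59.4, 33.4, 85.2 and 64.4 in tumours, and its groups overlapped in all comparisons without a call. Unc5a also passed in none.

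**Figure D3:**
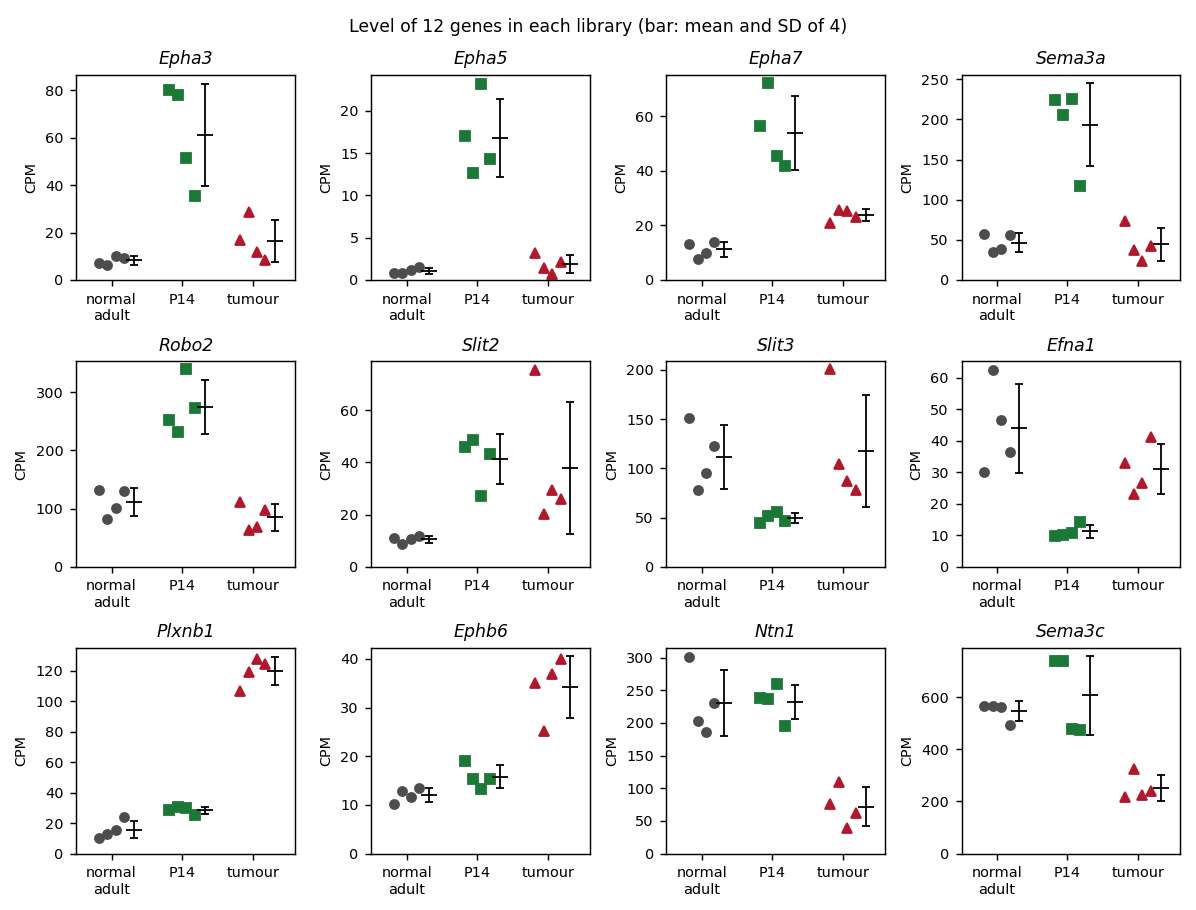
CPM of 12 axon guidance genes in each of the 12 libraries (points) with the mean and SD of each group of 4 (bars), every axis starting at 0. Epha3, Epha5, Epha7, Sema3a and Robo2 are highest in the 4 P14 libraries, Plxnb1 and Ephb6 in the 4 tumour libraries, and Ntn1 and Sema3c are lowest in tumours.

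Ephrins split at P14 into 4 higher and 2 lower of 8, and 0 of 8 were called between tumour and normal adult by edgeR, DESeq2 or limma voom, 1 (Efna4) having an unadjusted p under 0.05 by edgeR. Efna1, the main ligand of EphA2, measured 30.1, 62.5, 46.5 and 36.4 CPM in the normal adult libraries, 9.7, 10.1, 10.8 and 14.3 at P14 and 32.9, 22.9, 26.7 and 41.2 in tumours. Its P14 libraries were below all others, at -1.97 ± 0.25, adjusted p = 0.000338 against normal adult, and tumours were above P14 by 1.46 ± 0.25, adjusted p = 0.000834. Efnb1, an ephrin-B known from crypt boundaries, followed with 62.7 ± 19.2 CPM in normal adult, 33.8 ± 4.32 at P14 (-0.89 ± 0.20, adjusted p = 0.00563) and 58 ± 7.94 in tumours. Efnb3, an ephrin-B of the nervous system, was at 4.65 ± 0.327 CPM in P14 libraries against 0.583 ± 0.228 in normal adult (2.99 ± 0.52, adjusted p = 0.00157) and 0.359 ± 0.266 in tumours (-3.60 ± 0.55, adjusted p = 0.000419 against P14). Of the ephrin-A ligands, Efna2 (2.05 ± 0.36, adjusted p = 0.00157), Efna5 (1.10 ± 0.30, adjusted p = 0.0164) and Efna4 (1.04 ± 0.29, adjusted p = 0.0154) were higher at P14. The Efna4 call was lost without P14 replicate 1 (0.83, adjusted p = 0.0594). Efna3 passed only for tumour against P14 (1.57 ± 0.42, adjusted p = 0.0108), and Efnb2 in no comparison.

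Of the 6 EphA receptors, Epha3, Epha4, Epha5 and Epha7 were higher at P14 and Epha2 lower, and Epha1 was not called. Of the 5 EphB receptors 0 were called there by edgeR, DESeq2 or limma voom, with an unadjusted p under 0.05 by edgeR for 2, Ephb1 and Ephb6. The 4 that were higher at P14 are known from the mapping of nerve fibres, and Epha4 can bind ephrins of both classes. Their promoters are shown because all 4 were called higher at P14, although their order among the P14 libraries differed. Each is given as the 250 bases before the start from RefSeq's table on GRCm38.p6, 5′ to 3′ on the gene's strand. Capitals mark GC boxes (GGGCGG, the letters bound by Sp1) and CCAAT boxes on either strand.
Epha3 (chr16:63864176-63864425, minus strand): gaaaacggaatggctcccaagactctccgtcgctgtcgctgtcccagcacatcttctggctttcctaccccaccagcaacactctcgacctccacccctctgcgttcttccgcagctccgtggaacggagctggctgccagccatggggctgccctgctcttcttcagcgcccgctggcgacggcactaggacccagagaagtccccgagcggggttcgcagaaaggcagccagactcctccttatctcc
Epha4 (chr1:77515089-77515338, minus strand): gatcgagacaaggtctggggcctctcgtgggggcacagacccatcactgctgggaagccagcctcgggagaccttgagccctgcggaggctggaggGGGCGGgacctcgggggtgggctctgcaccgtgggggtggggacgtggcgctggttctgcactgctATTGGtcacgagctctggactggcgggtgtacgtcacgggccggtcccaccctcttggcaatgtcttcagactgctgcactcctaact
Epha5 (chr5:84417383-84417632, minus strand): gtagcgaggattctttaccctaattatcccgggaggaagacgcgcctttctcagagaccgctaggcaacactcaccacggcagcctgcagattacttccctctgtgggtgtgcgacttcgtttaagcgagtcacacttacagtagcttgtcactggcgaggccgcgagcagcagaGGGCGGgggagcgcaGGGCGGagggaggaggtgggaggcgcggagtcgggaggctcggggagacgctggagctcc
Epha7 (chr4:28812881-28813130, plus strand): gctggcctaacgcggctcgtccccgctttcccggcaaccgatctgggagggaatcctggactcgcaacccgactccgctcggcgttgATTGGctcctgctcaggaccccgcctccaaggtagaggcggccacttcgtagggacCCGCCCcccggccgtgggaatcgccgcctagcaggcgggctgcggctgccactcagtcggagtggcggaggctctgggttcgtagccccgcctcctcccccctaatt

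Such windows were found for 51 of the 60 genes, with 1 window per gene. A GC box stood in 38 of these 51 (74.5%), against 32.9% of the 27025 windows of all genes, a CCAAT box in 10 (19.6%, against 34.5%) and the TATA box TATAAA in 2 (3.92%, against 13.0%). Both strands were searched. The median GC content was 65.2% and the median number of CpG 17, against 52.0% and 6 in all windows. The 27025 windows include genes outside the 19049 of the count table, whereas the 51 are of genes that passed the filter on low counts. The 2 sets are therefore unlike, and no set of equally expressed genes was compared. Of the 4 EphA promoters, those of Epha4, Epha5 and Epha7 hold 1, 2 and 1 GC boxes and that of Epha3 holds none. A match describes letters in the window and shows no bound factor.

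Epha5 (ENSMUSG00000029245, GRCm38 chromosome 5, 84054761 to 84417382, minus strand) measured 0.865, 0.774, 1.23 and 1.53 CPM in the normal adult libraries, 17, 12.7, 23.2 and 14.3 at P14 and 3.19, 1.4, 0.763 and 2.07 in tumours. The lowest P14 library was above every other library, and the tumours were close to normal adult. Its log2 fold change was 3.93 ± 0.41, adjusted p = 0.000131 at P14 and 0.75 ± 0.40, adjusted p = 0.214 in tumours, against normal adult, with -3.18 ± 0.40, adjusted p = 0.000127 for tumour against P14. Epha3 measured 7.21, 6.27, 10.1 and 9.37 CPM in the normal adult libraries, 80.2, 77.8, 51.4 and 35.3 at P14 and 17, 28.7, 11.8 and 8.43 in tumours. P14 replicates 1 and 2 were the highest, and replicate 4, the lowest of its group, still exceeded all tumours. Against normal adult it changed by 2.89 ± 0.38, adjusted p = 0.000383 at P14 and by 1.00 ± 0.36, adjusted p = 0.0708 in tumours, the second with an adjusted p of 0.0317 without tumour replicate 4 and 0.0338 by DESeq2. Epha7 measured 13.3, 7.71, 9.91 and 13.8 CPM in the normal adult libraries, 56.5, 72, 45.3 and 41.9 at P14 and 20.8, 25.7, 25.1 and 23.2 in tumours, in 3 levels without overlap, normal adult lowest, tumours between and P14 highest. All 3 comparisons passed, at 2.27 ± 0.22, adjusted p = 8.14e-05 for P14 and 1.08 ± 0.21, adjusted p = 0.00444 for tumours against normal adult, and -1.18 ± 0.21, adjusted p = 0.00118 for tumour against P14.

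Epha4 measured 21, 27.9, 34.9 and 27.7 CPM in the normal adult libraries, 75.2, 77.2, 74.3 and 73.5 at P14 and 49, 30.0, 54.8 and 61.4 in tumours, with little spread at P14. P14 libraries were above all others (1.43 ± 0.21, adjusted p = 0.000671), and tumour replicate 2 lay among the normal adult values. The tumour rise (0.81 ± 0.21, adjusted p = 0.0169) was not called without normal adult replicate 1 (adjusted p = 0.0524) or with the Xist term (adjusted p = 0.066), and the lower level in tumours than at P14 (-0.62 ± 0.20, adjusted p = 0.0304) not without P14 replicate 1, 2 or 3 or tumour replicate 1 (adjusted p 0.0539 to 0.0647). Epha2, the ephrin-A1 receptor of epithelial cells, was the Eph receptor with the highest mean per length in normal adult and tumours but not at P14 (7.17 ± 3.35 CPM per kilobase, against 14.1 ± 1.04 for Ephb4). It measured 61, 88.9, 119 and 94.2 CPM in the normal adult libraries, 22.4, 20.7, 36.7 and 54.4 at P14 and 140.2, 106, 285 and 169 in tumours. P14 libraries were below the rest, at -1.44 ± 0.36, adjusted p = 0.0094 against normal adult, and tumours above P14 by 2.39 ± 0.37, adjusted p = 0.000451. Tumour against normal adult missed the threshold (0.95 ± 0.35, adjusted p = 0.0797), with an adjusted p of 0.0421 without tumour replicate 2. Epha1, another receptor of epithelia, measured 16.5, 22.4, 21.7 and 18.4 CPM in the normal adult libraries, 13.2, 14.5, 16.8 and 18.1 at P14 and 29.2, 21, 36.4 and 32.7 in tumours, with 1 tumour library, replicate 2, inside the normal adult range. Its tumour rise (0.59 ± 0.19, adjusted p = 0.0415) was lost with 9 of the left-out libraries (adjusted p 0.0513 to 0.119, the largest without normal adult replicate 1) and with the Xist term (adjusted p = 0.114). It shares 6.01% of its exon bases with Zyx on the opposite strand.

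Ephb6, an Eph receptor without kinase activity, was the EphB member that differed in tumours and measured 10.2, 12.8, 11.6 and 13.4 CPM in the normal adult libraries, 19.1, 15.4, 13.3 and 15.4 at P14 and 35, 25.1, 36.8 and 40.0 in tumours. All tumour libraries were above the other 8, at 1.51 ± 0.18, adjusted p = 0.000199 against normal adult and 1.11 ± 0.18, adjusted p = 0.000515 against P14. P14 against normal adult gave 0.40 ± 0.17, adjusted p = 0.101, with an adjusted p of 0.0408 without tumour replicate 2. Ephb1 was at or under 2.00 CPM in every library and was lower in tumours than at P14 (-1.67 ± 0.46, adjusted p = 0.0131). Ephb2, Ephb3 and Ephb4, the EphB receptors best known from crypt cells and vessels, passed in no comparison, with log2 fold changes between -0.42 and 0.32.

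Markers of other cell types moved with some of these genes. All 15 markers of colonic epithelium were lower at P14, where they summed to 735, 737, 456 and 2997 CPM in replicates 1 to 4 against 7163 to 14998 in normal adult and 1606 to 5670.0 in tumours. P14 replicate 4 was the highest of its group in that sum and also in 7 of the 9 genes lower at P14, namely Sema4a, Sema4b, Sema4d, Sema4g, Efna1, Efnb1 and Epha2, but not in Slit3 and Ntn4. Likewise, replicates 2 and 3 of the normal adult group, the highest in the epithelial sum, were its highest in Sema4a, Sema4b, Sema4g, Efna1 and Efnb1 and its lowest in Slit3 and Ntn4, but replicate 4 was highest in Sema4d and above replicate 2 in Epha2. Tumour replicate 2, the lowest tumour in the epithelial sum, was also the lowest of its group in each of those 7 genes. P14 replicate 4 was, however, also the highest of its group in leukocytes (14.5 CPM), macrophages and monocytes (34.4) and squamous epithelium (212). Normal adult replicates 2 and 3 were also the highest in leukocytes (52.7 and 41 CPM), but not in macrophages and monocytes or squamous epithelium. Tumour replicate 2 was the highest tumour in leukocytes (97.3 CPM) and in macrophages and monocytes (69.2). Immune markers were lower at P14 too, for 5 of 6 genes of leukocytes (5.14 to 14.5 against 39.7 to 52.7 CPM in normal adult), 7 of 8 of macrophages and monocytes (21.4 to 34.4 against 136 to 185) and 3 of 5 of B and plasma cells (0.402 to 23.8 against 208 to 1184), and so were 4 of 6 markers of adventitial fibroblasts (593 to 946 against 1076 to 1307). Squamous epithelium markers were higher in tumours for 10 of 10 genes, with none at 0 in any tumour library, and Krt5, a keratin of their basal layer, measured 777 to 1833 CPM there. Tumour replicate 4 held the largest squamous sum, 16242 CPM against 5793 to 7273. Krt14 made up much of it, at 8927 CPM against 1936 to 3750, whereas Krt5 was alike in tumour replicates 1 and 4 (1760 and 1833 CPM). Plxnb1 lay between 107 and 128 CPM in the tumour libraries. Pericyte markers were higher in tumours than in normal adult for 8 of 8 genes, and tumour replicate 1, the highest tumour in Slit2 and Slit3, had the largest sum, 3827 CPM against 1842 to 2538. The same library had the largest tumour sums of smooth muscle (2466 CPM against 1313 to 2019), endothelium (169 against 113 to 151) and mesothelium markers. The high Slit2 and Slit3 of tumour replicate 1 therefore do not single out pericytes. The part of these cells in the results was not tested.

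**Figure D4:**
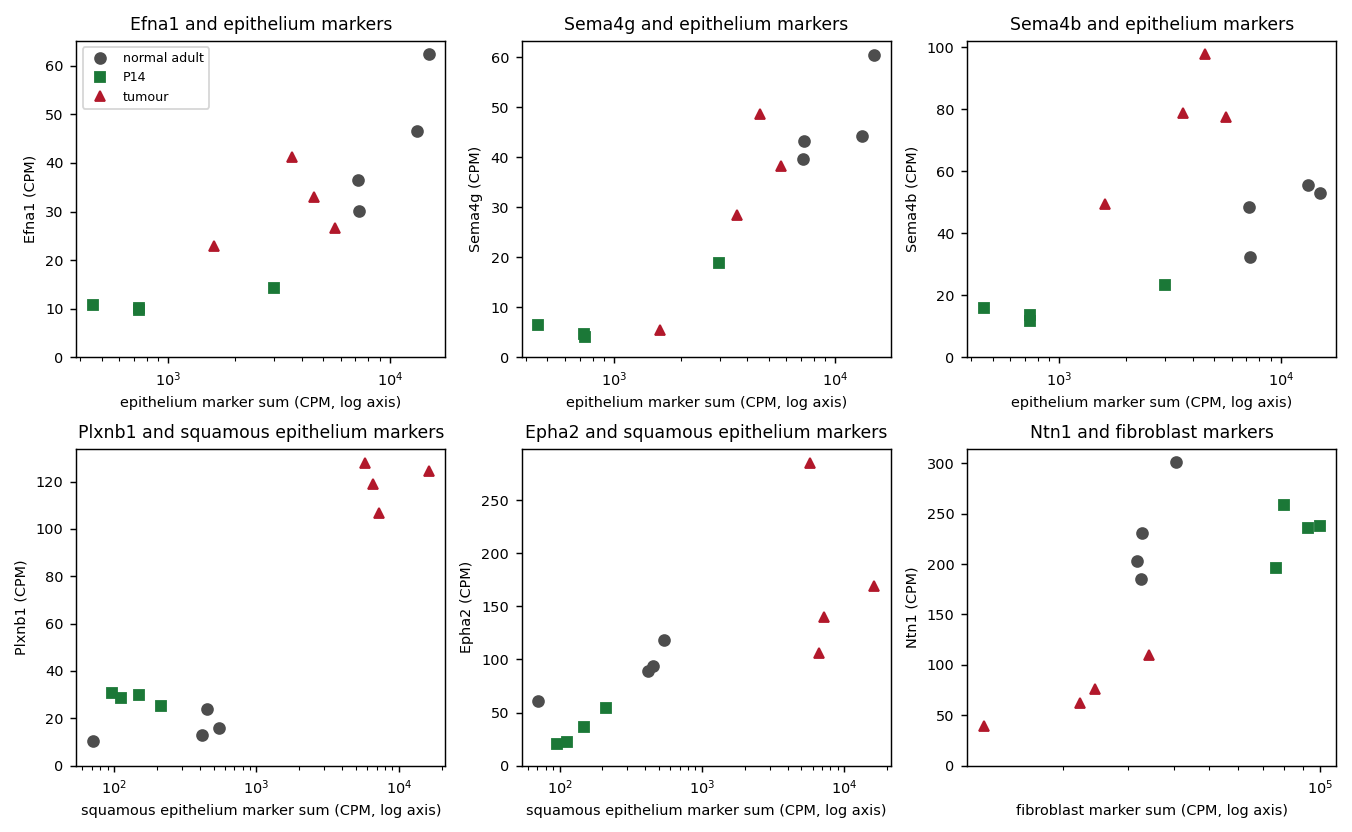
CPM of an axon guidance gene (vertical axis) against the summed CPM of a cell type's markers (horizontal log axis) in the 12 libraries, coloured by group. P14 replicate 4 is the rightmost P14 point in each epithelium panel, and the tumours lie far to the right in the squamous panels. Ntn1 in tumours follows the order of the fibroblast sum, of which Col3a1 is the largest part. The sums of adventitial fibroblasts, leukocytes, neutrophils, and B and plasma cells (not shown) have the same order there.

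For the genes higher at P14, smooth muscle, pericyte and nerve markers were higher as well. Smooth muscle markers passed for 10 of 10 genes and summed to 7074, 9041, 4839.8 and 4666 CPM at P14 against 1235 to 2173 in normal adult, and pericyte markers passed for 7 of 8 with 1875 to 2549.5 against 508 to 909.9 CPM. Enteric neuron markers were higher for 6 of 10 genes, with sums of 38.9, 52.9, 21.9 and 29.1 CPM at P14 against 17.5 to 26.5. Enteric glia markers were higher for 4 and lower for 1 of 8, and their sums were 137 to 216 CPM at P14 and 204 to 309.9 in normal adult. P14 replicates 1 and 2 were the highest in the smooth muscle and neuron sums and in 6 of the 24 genes higher at P14, Epha3, Epha4, Epha7, Efna4, Plxnb3 and Slit2. The same libraries were the highest at P14 in the sums of enteric glia, fibroblasts and adventitial fibroblasts. P14 replicate 3, the highest in the pericyte sum, was highest in 15, among them Epha5, Robo1, Robo2, Plxna4 and Unc5c, and the other 3 were Unc5d, Plxnb1 and Efnb3. P14 replicate 3 also led that group in endothelium (499 CPM against 254 or less) and lymphatic endothelium (89 against 21.9 or less). It led too in subepithelial fibroblasts (495 against 410 or less), interstitial cells of Cajal, neutrophils, and B and plasma cells. The order of these 15 genes therefore does not single out pericytes. No sum of the 17 lists passed after adjustment in any comparison; the test was a permutation test, exact and two-sided, whose 70 assignments allow no p below 0.0286, and the smallest adjusted value was 0.0607 at P14. The part of these cells in the P14 results was not tested.

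Other genes of the pathways, 74 further co-receptors, ligands and intracellular partners from a fixed list of 79, were called at 33.8% for P14 against normal adult (13 higher and 12 lower), 27.0% for tumour against normal adult (9 higher and 11 lower) and 48.6% for tumour against P14 (16 higher and 20 lower). Among all genes tested the shares were 30.9%, 18.9% and 37% in that order, so the share for P14 against normal adult lay near the background. The 5 called genes with the largest fitted change in each comparison are named, chosen after their values were seen, and no library was left out for them. At P14 against normal adult these were Islr2, a leucine-rich membrane protein of developing axons (-3.51 ± 0.63, adjusted p = 0.0018), the adaptor Grb7 (-2.60 ± 0.61, adjusted p = 0.00733), Tyrobp, a signalling adaptor of myeloid cells (-2.59 ± 0.92, adjusted p = 0.0481), Ngef, an exchange factor that acts below EphA receptors (-2.39 ± 0.39, adjusted p = 0.00113), and the kinase Pak3 (2.24 ± 0.28, adjusted p = 0.000324). Of these, Pak3 was the gene that was higher at P14. In tumours against normal adult, Draxin, which binds netrin 1 and Dcc, averaged 3.82 ± 1.69 CPM against 0.0781 ± 0.0749 (adjusted p = 0.00022). Islr2 was lower there as well, at 0.693 ± 0.647 against 9.97 ± 1.12 CPM (-3.77 ± 0.65, adjusted p = 0.00197). Higher in tumours were Chl1, an adhesion molecule that joins class 3 semaphorin receptors, at 218 ± 143 against 28.9 ± 13.6 CPM (2.91 ± 0.45, adjusted p = 0.00107), the neural adhesion molecule Cntn1, at 26.1 ± 23.6 against 4.68 ± 1.7 CPM (2.48 ± 0.55, adjusted p = 0.00823), and Grip1, an adaptor that binds ephrin-B tails (2.19 ± 0.29, adjusted p = 0.000378). For tumour against P14 the 5 were Draxin (0.255 ± 0.105 CPM at P14, adjusted p = 0.000339), Grb7 (2.87 ± 0.62, adjusted p = 0.00356), Tyrobp (2.86 ± 0.92, adjusted p = 0.0285), the endothelial receptor Robo4 (-2.79 ± 1.02, adjusted p = 0.0482) and Dpysl4, a mediator of collapse responses (-2.43 ± 0.45, adjusted p = 0.00131). Tyrobp averaged 2.99 ± 4.58 CPM in tumours and 0.41 ± 0.278 at P14. For Robo4 the levels were 10.1 ± 14.5 CPM at P14 and 1.45 ± 0.756 in tumours. In both genes the SD of the higher group exceeded its mean, so the libraries of that group were far from alike.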

How the data were processed

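Colonic stromal cells of 12 mice were profiled by polyadenylated, stranded RNA-seq with single-end reads of 75 bases, per the labels' protocols. Raw counts, 1 column per library, are what the authors deposited. The submitters' processing notes name STAR 2.4.2a, edgeR 3.28.0 and GRCm38. The counting tool, its strand setting and its treatment of shared reads are unstated in the sources used here. Of the 60 genes, 9 share over 1% of their exon bases with another gene.

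Gene IDs were matched to GENCODE M21 (19012 of 19049). edgeR 4.0.16 in R 4.3.3 was fitted to all 12 libraries with TMM factors after filterByExpr (minimum count 10, minimum total 15), which kept 18727 genes and removed 322. CPM were computed on TMM-scaled totals, and SEs were taken from the log2 fold change and its F statistic. The test step was tested on simulated counts. DESeq2 1.42.0, limma 3.58.1 (voom), other factors, no filter, 8 libraries only, a replicate block, an Xist term, and leaving out each library were the alternatives. The 12 libraries are labelled as separate mice, and pairs within a group differed beyond counting noise (chi-square per degree of freedom 11.4 or more).

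Values in every library are given for called genes with at least 5 CPM on average in 1 of the groups compared, up to the 14 largest changes per comparison, and for the gene of each role with the highest CPM per kilobase over the 12 libraries. The genes, lists and this rule were chosen with earlier results of these data known. Of 18 marker lists, 17 were tested, and that of T and NK cells was not used here.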

Additional observations from a re-analysis of the deposited data

Results flagged for a closer look

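In 4 of 90 series of 4 libraries, each a gene's CPM within a group, 1 library stood far from the other 3, and chance gives such a gap in about 1 of 20. Slit2 was 75.4 CPM in tumour replicate 1, against 20.2 to 29.4 in the other tumours. Sema4a was 13.7 CPM in P14 replicate 4, against 4.12 to 5.67 in the other P14 libraries. Sema4g was 18.8 CPM in the same library, against 4.09 to 6.39. P14 replicate 4 was also the P14 library with the largest sums of epithelial, squamous, leukocyte and macrophage markers, whose part was not tested. Sema3c was 492 CPM in normal adult replicate 4, against 563 to 567 in the other normal adult libraries.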

How the results depend on the processing

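The counts of called genes kept within 1.5 times of 33, 13 and 35 under other factors, without a filter, with DESeq2, with limma voom, with 8 libraries only and with an Xist term. At an adjusted p under 0.01, tumour against normal adult gave 8 calls. Leaving out 1 library at a time gave 29 to 35 calls for P14 against normal adult, 9 to 18 for tumour against normal adult and 31 to 37 for tumour against P14. The numbers in the sample titles are not stated to pair the libraries. Deviations from the group means correlated above 0.1 in 3 of the 6 pairs with a shared number, all of them pairs of number 2 (0.204, 0.208 and 0.319), against -0.292, 0.019 and -0.098 in the others. Pairs of unlike number were not compared, so these values cannot settle whether the libraries are paired. With the title numbers as a replicate block, which leaves 3 residual degrees of freedom, there were 20 calls for P14 against normal adult, 6 for tumour against normal adult and 29 for tumour against P14. Refits of single genes were counted for 30 genes, those chosen by the rule for giving values in every library. Each was refitted under 21 alternatives in all 3 comparisons, whether or not it was called there. Of these 1890 refits, 83 lost a call, 14 gained one and 0 reversed the direction of a call. Refits without a call to lose are included, so 83 of 1890 is not the share of calls lost. Plxnd1 and Sema4c, whose P14 calls were lost without some single libraries, were not among the 30. Other factors moved the median of all genes by at most 0.092 on the log2 scale. Precision is limited by 4 libraries a group and, for genes under about 1 CPM, by counts.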
